A study of Mus musculus with 11 samples.

Results

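Adamtsl2-high stellate cells were taken from a 10X Chromium library of uninjured mouse liver, prepared with digestion protocol 2, the procedure used to isolate hepatic stellate cells (HSCs). A cell belonged to the group when it held at least 3 unique molecular identifiers (UMIs, each standing for 1 counted RNA molecule) of Adamtsl2 and no UMI of Ngfr, after cells with under 300 genes or over 30% mitochondrial UMIs had been left out. These measured values chose 452 of the 6850 cells of the library (6.60%, exact binomial 95% interval 6.02 to 7.21) and 452 of the 30999 10X cells of the series. They were compared with the 2722 cells of the same library that had no Adamtsl2 UMI, called reference cells below. Another 2961 cells held 1 or 2 Adamtsl2 UMIs, and 715 held at least 3 together with an Ngfr UMI. All mice were adult males of the Pdgfrb-BAC-eGFP strain on a C57BL/6 background, in which a bacterial artificial chromosome drives GFP from Pdgfrb sequences, so that cells without Pdgfrb activity were not collected. GFP-positive cells without CD45 or CD102, surface proteins of leucocytes and endothelial cells, were sorted after retrograde perfusion with EGTA, pronase and collagenase D. The other 10X libraries came from mice 72 h after carbon tetrachloride (CCl4, an acute centrilobular toxin), from mice given CCl4 for 6 weeks, and, with protocol 1 for portal fibroblasts, from uninjured and 6-week mice. Each library pooled 3 mice with no record of which cell came from which mouse, so each is 1 sample, and the intervals given for 10X values cover counting error only. Smart-seq2 wells of uninjured mice, sequenced as full-length cDNA and identified by mouse, were the only replicated data on these cells.

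Stellate cells lie along the sinusoids of the liver, between endothelium and hepatocytes, and store vitamin A as retinyl esters. Blood runs through each lobule from the portal vein to the central vein, and hepatocytes, endothelial cells and stellate cells differ along that path. Adamtsl2 is a secreted glycoprotein that binds fibrillin microfibrils and latent TGF-beta binding proteins. Rspo3 is a ligand of the LGR receptors that strengthens Wnt signals, a pathway that maintains the pericentral programme of hepatocytes, and Spon2 is a secreted matrix protein. Ngfr, the low-affinity nerve growth factor receptor, is used as a marker of stellate cells of the portal side. The study named stellate cells of the central side CaHSCs and those of the portal side PaHSCs, and its lists of central and portal genes were drawn from these same cells.

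The promoters of genes on which the contrast turns are printed here, as the 250 bases before the RefSeq start (GRCm38.p6), read 5′ to 3′ on the strand of the gene. Adamtsl2 and Ngfr chose the cells, Inmt had the highest ratio among the higher genes with at least 50 CPM (counts per 1000000 UMIs), and Vtn and Rgs4 were among the lowest. Capitals mark TATAAA on the given strand, and GTGGGAA (the RBPJ core of Notch targets) or CTTTGAT (the TCF/LEF core of Wnt targets) on either strand, where GTGGGAA reads TTCCCAC and CTTTGAT reads ATCAAAG on the other strand. The windows are chr2:27079129-27079378 (+) for Adamtsl2, chr6:55174991-55175240 (-) for Inmt, chr11:78498870-78499119 (+) for Vtn, chr1:169747643-169747892 (-) for Rgs4 and chr11:95587699-95587948 (-) for Ngfr.
Adamtsl2: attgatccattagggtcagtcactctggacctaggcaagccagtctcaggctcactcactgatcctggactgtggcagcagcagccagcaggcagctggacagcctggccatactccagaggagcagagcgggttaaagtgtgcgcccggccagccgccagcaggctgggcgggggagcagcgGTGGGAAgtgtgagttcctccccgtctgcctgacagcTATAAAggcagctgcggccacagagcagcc
Inmt: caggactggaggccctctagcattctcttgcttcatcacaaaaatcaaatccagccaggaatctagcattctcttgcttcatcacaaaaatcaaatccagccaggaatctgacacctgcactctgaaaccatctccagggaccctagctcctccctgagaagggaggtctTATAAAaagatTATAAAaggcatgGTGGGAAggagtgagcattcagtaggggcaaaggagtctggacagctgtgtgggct
Vtn: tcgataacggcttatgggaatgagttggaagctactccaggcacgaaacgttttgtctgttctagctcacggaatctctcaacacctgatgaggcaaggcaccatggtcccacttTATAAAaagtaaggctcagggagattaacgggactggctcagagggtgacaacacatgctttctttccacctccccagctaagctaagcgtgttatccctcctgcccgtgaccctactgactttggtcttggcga
Rgs4: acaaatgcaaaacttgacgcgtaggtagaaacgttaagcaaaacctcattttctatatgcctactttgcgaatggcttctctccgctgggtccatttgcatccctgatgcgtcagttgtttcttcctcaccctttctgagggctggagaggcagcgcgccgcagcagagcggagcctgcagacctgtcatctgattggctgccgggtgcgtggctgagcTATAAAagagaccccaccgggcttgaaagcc
Ngfr: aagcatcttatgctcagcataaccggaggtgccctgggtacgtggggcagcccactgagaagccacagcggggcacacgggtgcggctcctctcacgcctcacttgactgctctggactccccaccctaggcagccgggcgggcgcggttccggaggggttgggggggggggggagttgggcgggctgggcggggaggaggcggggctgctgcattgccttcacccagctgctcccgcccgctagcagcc
The Adamtsl2 window held TATAAA 30 bases before the start and a GTGGGAA upstream of it. That of Rgs4 held TATAAA 31 bases before the start, whereas in Vtn it lay 135 bases before. Inmt had 2 copies of TATAAA and 1 GTGGGAA, and Ngfr had no match. TATAAA was found in 7.59% of the 32851 promoters of this length, in 8 of 92 promoters of genes higher in Adamtsl2-high cells (8.70%) and in 6 of 165 of genes lower in them (3.64%). GTGGGAA was found in 5.42% of all promoters, in 5.43% of those of the higher genes and in 5.45% of those of the lower genes. For CTTTGAT the shares were 3.21%, 4.35% and 0.606%. These promoters belonged to 64 of the 91 higher and 123 of the 167 lower genes defined below. A match is a description of the letters, not a measured binding site.

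The cells carried the RNA of stellate cells. All 10 stellate markers were detected in them, with a summed level of 29338 CPM against 30722 CPM in reference cells. Ecm1, an extracellular matrix glycoprotein, was the most abundant of the 10, at 15590 against 15020 CPM. Reln, the secreted glycoprotein reelin, was seen in 451 of the 452 cells and Lrat, the enzyme that esterifies retinol, in 448. Pth1r was the only stellate marker to differ by 1.5-fold, at 996 CPM against 1627 CPM. Of the markers of other cell types, Trf (hepatocytes) had a UMI in 378 of the 452 cells, and Tpm2 and Tagln (smooth muscle) in 209 and 188. The 7 fibroblast markers summed to 42.0 against 27.4 CPM, with Gpx3 the most abundant and Clec3b, Fbln2 and Col15a1 at 0, and Dpt stood at 18.0 against 3.03 CPM. Cells with at least 3 fibroblast marker UMIs numbered 9 of 452 (1.99%) against 21 of 2722 (0.771%).

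Of the 6 smooth muscle markers, Pln and Cnn1 were not detected and the others summed to 354 against 737 CPM, most of it Tagln. The 6 hepatocyte markers summed to 362 against 272 CPM. Trf (transferrin) was the most abundant, at 332 against 204 CPM, while Alb (albumin) stood at 13.2 against 30.2 CPM, and cells holding at least 3 of these genes made up 1.99% against 5.55%. Endothelial markers summed to 2.71 against 3.95 CPM (most abundant Tie1, with Kdr and Stab2 at 0) and leucocyte markers to 6.44 against 8.75 CPM (most abundant Cd74, with Clec4f at 0). Cholangiocyte markers summed to 1.02 against 0.629 CPM, all of it Sox9 in the Adamtsl2-high cells, and Schwann cell markers to 2.03 against 2.35 CPM, mostly S100b. None of 5 mesothelial markers was detected.

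Median depth was close in the compared groups, but fewer of the Adamtsl2-high cells were shallow. The median cell held 6535 UMIs and 2472 genes among Adamtsl2-high cells, and 6538.5 UMIs and 2530.5 genes among reference cells, with 1.79% and 1.76% mitochondrial UMIs. The 10th percentile was 4241 and 3231 UMIs. Together they held 2951308 and 17480480 UMIs, of the 46389575 UMIs of the library. A simulation-based caller marked 21 of the 452 cells (4.65%) and 375 of all 6850 (5.47%) as doublets, and they were kept. The library shared 74, 56, 55 and 45 cell barcodes with the other 4 libraries.

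Adamtsl2 (ENSMUSG00000036040, chr2:27079379-27108981, GRCm38) stood at 594 CPM in the cells it chose and at 0 in reference cells by construction, with 202 CPM in the cells with 1 or 2 UMIs. The chosen cells held a median of 3 UMIs and at most 11. Ngfr (ENSMUSG00000000120, chr11:95568818-95587735) stood at 0 in the chosen cells, also by construction, and at 380 CPM in reference cells, whose choice did not use it. All other genes of the contrast are given as descriptions, since the same cells chose the groups. A gene was called at a CPM ratio of at least 1.5 in either direction with at least 20 CPM in the higher group. Of 6047 genes at that level, 91 were higher in Adamtsl2-high cells (1.5% of those compared) and 167 were lower (2.76%), and the median log2 ratio over all was -0.03. Leaving out the cells with at least 3 fibroblast marker UMIs gave 90 higher and 165 lower, leaving out those with at least 3 hepatocyte markers 94 and 163, leaving out called doublets 101 and 167, and leaving out the 10% of cells highest in stress genes 103 and 176. When cells were thinned to 3000 UMIs before they were chosen, with at least 2 Adamtsl2 UMIs (469 against 3940 cells), 50 of the 91 and 99 of the 167 genes were called, and 91 and 166 kept their side of 1.

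**Figure D1:**
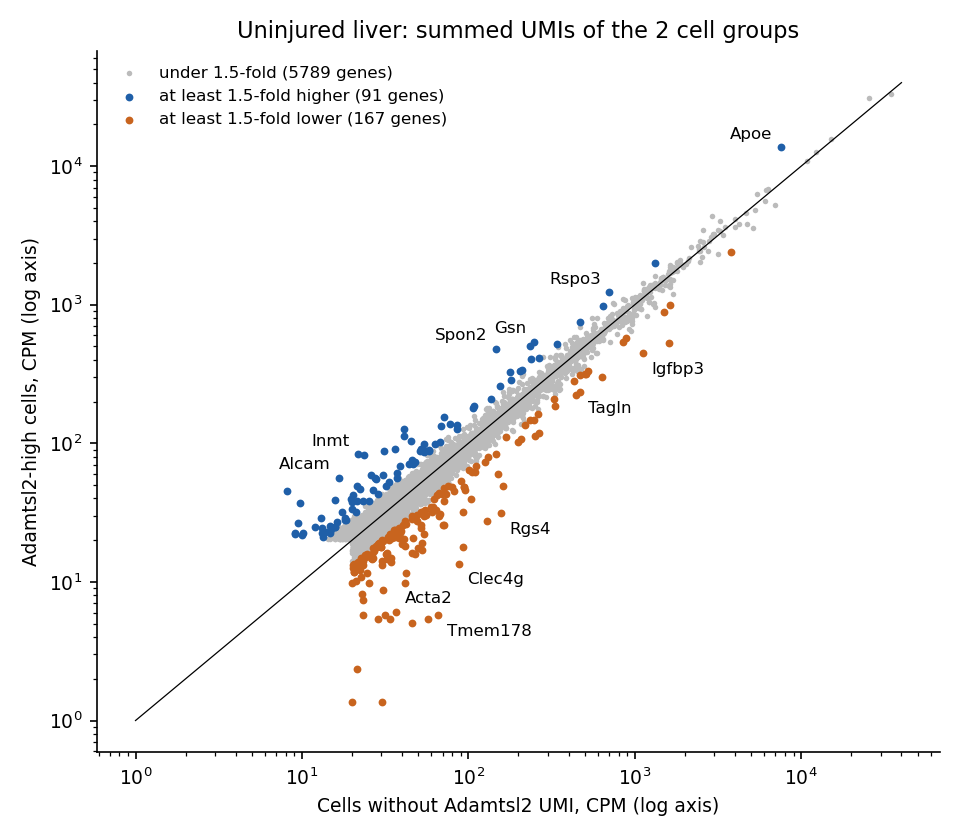
Level of each gene in reference cells (x axis) and in Adamtsl2-high cells (y axis) of the uninjured HSC library, in CPM on log axes, 1 point per gene, with Adamtsl2 and Ngfr left out and the line marking equal levels. The 91 higher genes (blue) lie above the line over the whole range of levels up to Apoe, and the 167 lower genes (orange) lie below it, with Tmem178 and Acta2 among the lowest in Adamtsl2-high cells.

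Among ligands, Rspo3 and Spon2 were higher. Spon2 (ENSMUSG00000037379, chr5:33198184-33218455) stood at 480 CPM (456 to 506) against 146 CPM (141 to 152), a ratio of 3.29 (3.08 to 3.51). Rspo3 (ENSMUSG00000019880, chr10:29452416-29535867) stood at 1232 CPM (1193 to 1273) against 702 CPM (690 to 715), a ratio of 1.75 (1.69 to 1.82). The intervals of the groups were apart for both genes. Of 10 R-spondin and Wnt genes compared, Rspo3 and Dkk3, a secreted protein of the Dickkopf family, were the 2 higher ones, and none was lower. Dkk3 stood at 56.2 against 27.4 CPM. Lgr5, Wnt2, Dkk1 and Sfrp2 were at 0 in Adamtsl2-high cells, which with 3 UMIs as the floor allows up to 1.02 CPM.

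Genes of the extracellular matrix moved in both directions. Of 27 collagens, proteoglycans and other matrix genes, 6 were higher and 4 lower, and the median log2 ratio was 0.10. Podn, a small leucine-rich proteoglycan, stood at 82.3 against 23.5 CPM, and Loxl1, which crosslinks elastin, at 114 against 41.2 CPM. Lum and Ogn, proteoglycans of collagen fibrils, were the other higher members along with Spon2 and Col1a1, the alpha 1 chain of type I collagen, at 261 against 155 CPM. Basement membrane genes made up 3 of the lower ones, with Col4a1 at 319 against 499 CPM, Col4a2 at 186 against 333 CPM and the laminin chain Lama1 at 84.4 against 146 CPM. Fn1, which encodes fibronectin, was the fourth, at 223 against 442 CPM.

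In a list of ADAMTS, ADAMTS-like, elastic fibre and microfibril genes, 4 of 17 were higher and none lower, with a median log2 ratio of 0.00. Adamts5, a protease of aggrecan and versican, stood at 155 against 71.5 CPM, and Adamts2, which trims procollagen, at 287 against 180 CPM. Elastin (Eln) was at 47.1 against 22.4 CPM and Mfap2, a microfibril protein, at 27.8 against 18.4 CPM. Of 21 genes of TGF-beta and BMP signalling, 1 was higher and 1 lower. These were Id2, a target of BMP signals, at 98.3 against 62.8 CPM, and the ligand Tgfb2 at 7.45 against 23.4 CPM.

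The other genes with the largest ratios above 1 were of varied function. Inmt, a methyltransferase of indoles such as tryptamine (ENSMUSG00000003477, chr6:55170626-55175043), stood at 83.7 CPM (73.6 to 94.8) against 21.9 CPM (19.7 to 24.2), a ratio of 3.83 (3.25 to 4.51). Alcam, an adhesion molecule of the immunoglobulin family, stood at 56.6 against 16.6 CPM. The calcium-activated chloride channel Ano1 stood at 126 against 41.2 CPM. Htra3 is a secreted serine protease, Cpne8 a calcium-dependent phospholipid-binding protein, and Palld and Gsn are actin-binding proteins. Their ratios were 2.80, 2.29, 2.26 and 2.18. Lpar1, a receptor of lysophosphatidic acid (LPA), stood at 90.5 CPM against 36.3 CPM. Plpp1, a phosphatase that breaks down LPA, was the other of 6 LPA and sphingosine phosphate genes to be higher, at 103 against 67.9 CPM, and none was lower.

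Movement both ways was also seen in receptors. Of 22 growth factors and receptors, 2 were higher and 4 lower. Fgfr1 and Fgfr2, receptors of fibroblast growth factors, were higher, at 42.4 against 20.1 CPM and 524 against 342 CPM. Gcgr, the glucagon receptor, stood at 18.0 against 93.0 CPM. Igfbp3, which binds insulin-like growth factors, stood at 451 against 1119 CPM. Pth1r and Pdgfrb, the receptor whose promoter drives the reporter, were the other lower members, the latter at 162 against 263 CPM. Of 17 lectins, chemokines and their receptors, Ackr4, which scavenges chemokines, was higher at 37.3 against 9.67 CPM. The chemokine Ccl2 was lower at 528 against 1598 CPM, as were the CSF1 receptor ligand Il34 at 114 against 251 CPM and Cxcl2 at 15.9 against 32.0 CPM.

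Contractile genes were lower or level. Of 13 compared, 8 were lower and none higher, with a median log2 ratio of -0.66. Acta2, smooth muscle alpha-actin, stood at 6.10 CPM (18 UMIs) against 36.8 CPM. It had a UMI in 12 of 452 (2.65%) against 125 of 2722 cells (4.59%), and 10 reference cells held 272 of the 644 UMIs of that group. Myh11, smooth muscle myosin, stood at 5.42 against 28.5 CPM. Tagln and Tpm2, which bind actin, stood at 235 against 466 CPM and 107 against 206 CPM. The summed smooth muscle markers moved with these genes, 4 of which are in both lists, and their part in the contrast was not tested. Notch3, a Notch receptor outside this list, had 4 UMIs in Adamtsl2-high and 350 UMIs in reference cells, a ratio of 0.0677 (0.0183 to 0.175), and was named after its value was seen. Heyl, a transcription factor induced by Notch and a member of the transcription factor list, stood at 31.9 against 92.8 CPM.

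The genes lower by the largest ratio were Tmem178, Vtn, Clec4g, Gcgr and Rgs4, among genes with at least 50 CPM in reference cells. Vtn encodes the adhesive glycoprotein vitronectin (ENSMUSG00000017344, chr11:78499091-78502324). It stood at 5.42 CPM (3.10 to 8.80) against 57.3 CPM (53.8 to 60.9). Rgs4, which speeds the hydrolysis of GTP by G proteins (ENSMUSG00000038530, chr1:169741477-169747642), stood at 31.5 CPM (25.4 to 38.6) against 158 CPM (152 to 164). Tmem178, a transmembrane protein, stood at 5.76 against 66.0 CPM, and the C-type lectin Clec4g at 13.6 against 87.9 CPM. The imprinted gene Mest stood at 27.4 against 130 CPM and Ndufa4l2, a mitochondrial protein raised in hypoxia, at 49.1 against 162 CPM. Ratios of Tmem38b, Rem1 and Ttyh1 lay between 0.321 and 0.362.

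Other lists were set against the same shares over all genes, 1.5% higher and 2.76% lower. Lrat was at 1311 against 1240 CPM, and of 11 retinoid genes Aldh1a3 and Dhrs3, enzymes of retinoic acid synthesis and retinal reduction, were higher and none lower. Of 12 axon guidance genes, the receptors Robo2 and Unc5b were higher and none lower. Among 21 stellate transcription factors, Tsc22d1 was higher, and Tbx2, Heyl and Mef2c were lower. Of 10 hypoxia genes, Ndrg1 was higher, and Ndufa4l2 and Hilpda were lower. The 9 immediate early genes held no called member but summed to 14890 against 12755 CPM, most abundantly Fos at 3999 against 3268 CPM. Of 9 heat shock genes, Hspa1b was lower, and none of 9 interferon-stimulated genes was called. Pcna was the only cell cycle gene with enough UMIs, at 39.6 against 40.4 CPM. Hepatocyte genes of the pericentral zone summed to 533 against 550 CPM, mostly Oat at 416 against 426 CPM, and periportal ones to 37.6 against 54.2 CPM, mostly Ass1. Thbd, listed for pericentral endothelium, stood at 47.8 against 34.0 CPM, with Wnt2, Cdh13 and Fabp4 at 0.

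The central and portal lists of the study were compared next, with the caution that they were chosen from these libraries and that Adamtsl2 and Ngfr are on them. Of 28 central genes other than Adamtsl2, 17 were higher and none lower, with a median log2 ratio of 0.67. Of 51 portal genes other than Ngfr, 43 were lower and none higher, with a median of -1.10. A score per cell, the mean standardised level of the central genes minus that of the portal genes, was above the median of the library in 414 of the 452 cells (91.6%, 88.6 to 94.0). It was above that median in 29.7% of reference cells and in 8.46% of the 1087 cells with at least 3 Ngfr UMIs and no Adamtsl2 UMI. Nearer to the Adamtsl2-high cells were the 715 cells with as many Adamtsl2 UMIs and an Ngfr UMI, at 71.7%, and the 607 reference cells without Ngfr, at 62.9%. The score overlapped between the groups. Its median was 0.63 in Adamtsl2-high cells, -0.32 in reference cells and 0.24 in those without Ngfr, and the upper 10% of reference cells lay above 0.555. In the space of 10 principal components, Adamtsl2-high cells made up 14.1% of the 30 nearest neighbours of one another, against 6.42% of the neighbours of all cells, 9.20% of those of the 715 cells, 7.85% of those of the 607 cells and 1.14% of those of the Ngfr-high cells.

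Higher genes such as Spon2 were seen in more cells, not in all. At 3000 UMIs per cell, which left out 22 Adamtsl2-high and 235 reference cells, Spon2 had a UMI in 68.8% of 430 cells (64.2 to 73.2) against 28.1% of 2487 (26.3 to 29.9). Without thinning the shares were 83.8% and 40.9%. Rspo3 had a UMI in 96.0% against 79.8% of thinned cells, and in 99.1% against 90.2% without thinning. Podn, Ano1 and Loxl1 were seen in fewer cells of either group, in 22.1% against 6.27%, 32.3% against 11.1% and 30.7% against 11.4% of thinned cells. For 3 lower genes the order was the opposite. Igfbp3 had a UMI in 52.8% against 79.0%, Ccl2 in 39.1% against 63.8% and Rgs4 in 7.67% against 28.9%. Hardly any cell of another type was in the library, so a share from free RNA could not be measured there. Of 7 higher genes (Spon2, Podn, Inmt, Lpar1, Loxl1, Htra3 and Ano1), at least 2 were seen in 67.7% of Adamtsl2-high cells and 19.0% of reference cells. None was seen in 6.98% and 48.4%. These genes were picked from the higher genes of the same cells, so a difference in this direction followed from the choice.

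The threshold of 3 UMIs lay on a slope rather than at a step. Among cells without an Ngfr UMI, 379 had 2 Adamtsl2 UMIs, just outside the rule, and 231 had 3, just inside it. Spon2 stood at 395 CPM in the former and 480 CPM in the latter, Rspo3 at 1133 and 1202 CPM, and Igfbp3 at 565 and 420 CPM. From 0 through 1, 2, 3 and 4 to at least 5 Adamtsl2 UMIs, Spon2 stood at 289, 344, 395, 480, 427 and 555 CPM. Loxl1 stood at 57.8, 80.7, 95.8, 109, 99.5 and 145 CPM, and Col1a1 at 181, 205, 240, 250, 259 and 289 CPM. Each was lowest in the cells with 0 and highest in the 94 cells with at least 5 UMIs. Igfbp3 stood at 766, 621, 565, 420, 515 and 433 CPM along the same classes. Lrat had no such order, between 1221 and 1365 CPM.

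**Figure D2:**
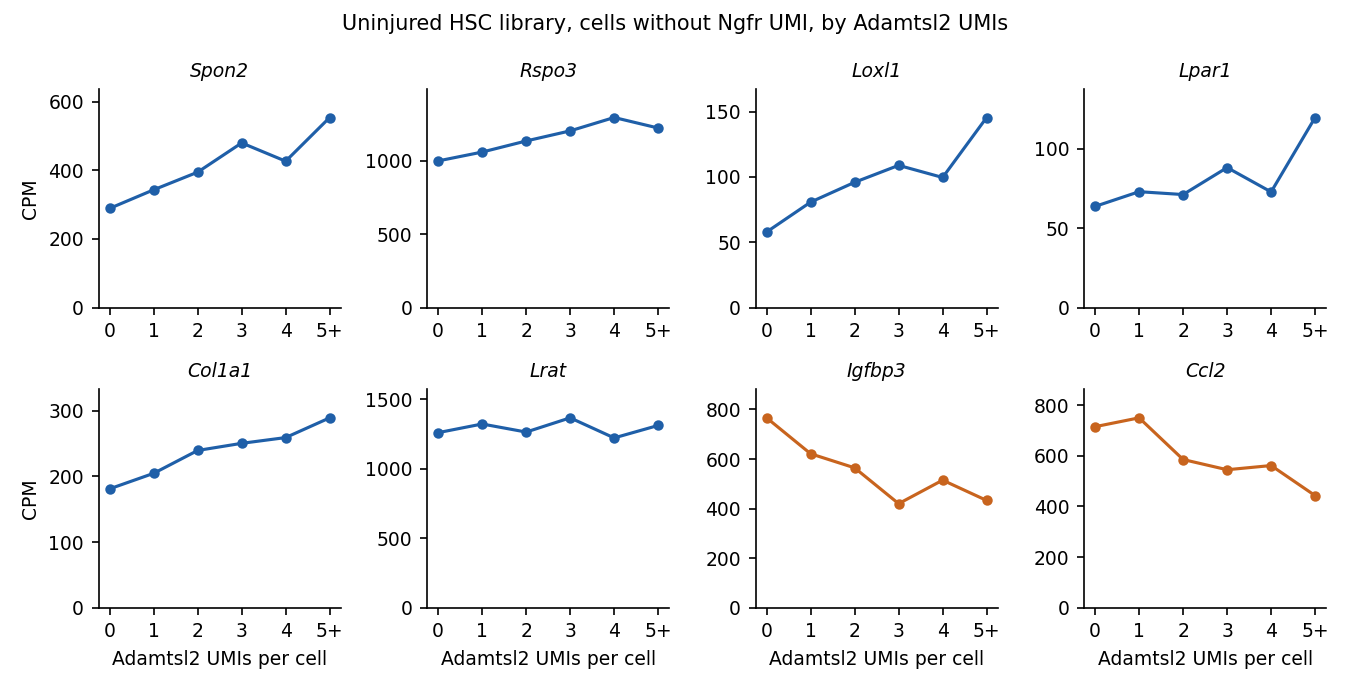
Level in CPM (y axes, each from 0) of 8 genes in cells of the uninjured HSC library without an Ngfr UMI, by the number of Adamtsl2 UMIs in the cell (x axes), where each point is the summed level over 607, 605, 379, 231, 127 and 94 cells in that order. Spon2, Loxl1 and Col1a1 are highest in the class with at least 5 UMIs, Igfbp3 and Ccl2 are lower there than in the class with 0, and Lrat has no order.

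The contrast was smaller against reference cells that also lacked Ngfr. Only 607 of the 2722 reference cells lacked Ngfr UMIs, and these had fewer UMIs per cell (median 5777). Against them, 56 genes were higher and 65 lower in Adamtsl2-high cells. Of the 91 and 167 genes, 26 and 48 were still called, and 89 and 165 kept their side of 1. The ratio of Spon2 was 1.66 in that comparison, that of Rspo3 1.24, that of Inmt 1.58, that of Loxl1 1.97 and that of Lpar1 1.42. Vtn stood at 0.312, Rgs4 at 0.487, Igfbp3 at 0.588 and Ccl2 at 0.739. Acta2 hardly changed, with a ratio of 0.171. Cxcl2 crossed 1, from 0.498 to 1.36. With the 715 Ngfr-positive cells added to the Adamtsl2-high cells, 45 genes were higher and 77 lower, of which 42 and 77 were among the 91 and 167. Acta2 was not called then, at 25.5 against 36.8 CPM, a ratio of 0.691.

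Over 6463 cells of the library thinned to 3000 UMIs, the genes whose UMIs followed those of Adamtsl2 most closely among 3086 genes were Apoe (Spearman's rho 0.303), Spon2 (0.210), Dcn (0.174), Rspo3 (0.168) and Tgfbi (0.163). These values are descriptions of sparse counts in cells of 1 library. Apoe, the apolipoprotein, stood at 13632 CPM in Adamtsl2-high cells against 7514 CPM, a ratio of 1.81. Dcn, the proteoglycan decorin, stood at 31045 against 25564 CPM, a ratio of 1.21, which was below the 1.5-fold mark. At the other end stood Sod3, an extracellular superoxide dismutase, with a rho of -0.192.

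The same rule was applied to the injured HSC libraries, which had not chosen the genes, with the caution that they were deeper. At 72 h after CCl4, 965 of 7310 cells met it (13.2%), and after 6 weeks 338 of 5454 (6.20%). Those libraries held 86661230 and 52232951 UMIs, and at 72 h the Adamtsl2-high cells were deeper than their reference cells (median 13513 against 9015 UMIs). At 3000 UMIs per cell and at least 2 Adamtsl2 UMIs, a rule added after the data were seen, the shares were 7.26% in uninjured liver, 7.88% at 72 h and 4.38% after 6 weeks. Adamtsl2 stood at 186, 162 and 110 CPM over all cells of these libraries. With 1 library a condition, the differences between them were not tested.

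Within the 72 h library, 181 of 5609 genes were higher in Adamtsl2-high cells (3.23%) and 237 lower (4.23%). After 6 weeks, 182 of 5669 were higher (3.21%) and 302 lower (5.33%). Of the 91 genes higher in uninjured liver, 80 were compared at 72 h. There 73 had a ratio above 1, as did 37.0% of all genes, and 48 (60%) were called higher. After 6 weeks, 77 of 79 were above 1, and 39 (49.4%) were called. Of the 167 lower genes, 119 of 135 lay below 1 at 72 h and 69 (51.1%) were called lower, and after 6 weeks 129 of 141 lay below 1 and 82 (58.2%) were called. Over all genes 63.0% lay below 1 in either library. Calls in the opposite direction were few. They were Hhip in both libraries, Alb, Igfbp3 and Acta2 at 72 h, and Htra1 after 6 weeks.

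Ratios of Rspo3 and Spon2 were nearer 1 after injury. Rspo3 had ratios of 1.75 in uninjured liver, 1.26 at 72 h and 1.06 after 6 weeks, the last with an interval of 1.02 to 1.11. Against reference cells without Ngfr they were 0.960 at 72 h and 0.874 after 6 weeks, below 1. For Spon2 they were 3.29, 1.61 and 2.19. Col1a1, Podn, Loxl1 and Eln were higher in Adamtsl2-high cells of all 3 libraries. Col1a1 stood at 261, 3148 and 1268 CPM in Adamtsl2-high cells, against 155, 1296 and 464 CPM in the reference cells of the same libraries. Podn had ratios of 3.51, 2.64 and 3.64, Loxl1 of 2.76, 1.87 and 2.68, and Eln of 2.11, 2.69 and 3.03. Of the collagen and proteoglycan list, 13 of 30 genes were higher and 1 lower at 72 h, and 13 of 28 were higher and 2 lower after 6 weeks. Fn1 had ratios of 0.505, 1.01 and 0.786. Rgs4 stayed low, at a ratio of 0.175 at 72 h and 0.202 after 6 weeks.

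Of 14 contractile genes compared in each injured library, 2 were higher and 1 lower at 72 h, and none was higher and 9 lower after 6 weeks. Acta2, the only contractile gene called in opposite directions, stood at 6.10 against 36.8 CPM in uninjured liver, at 1094 against 674 CPM at 72 h and at 65.8 against 238 CPM after 6 weeks. Myh11 and Tpm2 had ratios of 0.562 and 0.708 at 72 h, and Tagln one of 1.13. Igfbp3 stood at 451 against 1119 CPM, then 315 against 192 CPM, then 994 against 1517 CPM. For Acta2 and Igfbp3 the 72 h library alone had the higher level in Adamtsl2-high cells. With cells thinned before they were chosen, the 72 h ratio of Acta2 was 0.933 and that of Igfbp3 1.43, and against reference cells without Ngfr they were 1.09 and 1.21, so that neither gene was called. Markers of other cells moved with these contrasts, and their part was not tested. Cells with at least 3 fibroblast marker UMIs were 58.1% of Adamtsl2-high and 28.7% of reference cells at 72 h, and 75.1% and 34.8% after 6 weeks. Reln had a UMI in 949 of 965 and 2361 of 2481 cells at 72 h, and in 336 of 338 and 2803 of 2828 after 6 weeks. Summed fibroblast markers stood at 366 against 271 CPM and 995 against 427 CPM. Among them, Gpx3 stood at 198 against 163 CPM and 604 against 290 CPM. Clec3b stood at 0.437 against 11.1 CPM and 9.05 against 6.02 CPM. Summed smooth muscle markers, which overlap the contractile list, stood at 2228 against 1857 CPM at 72 h and 494 against 1351 CPM after 6 weeks. Summed hepatocyte markers stood at 224 against 55.4 CPM at 72 h, with Alb at 49.3 against 5.09 CPM. One cell held 626 of the 678 Alb UMIs of the Adamtsl2-high cells, and cells with at least 3 hepatocyte markers made up 0.415% of them against 0.524% of reference cells. Without such cells, Alb stood at 3.60 against 4.61 CPM.

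**Figure D3:**
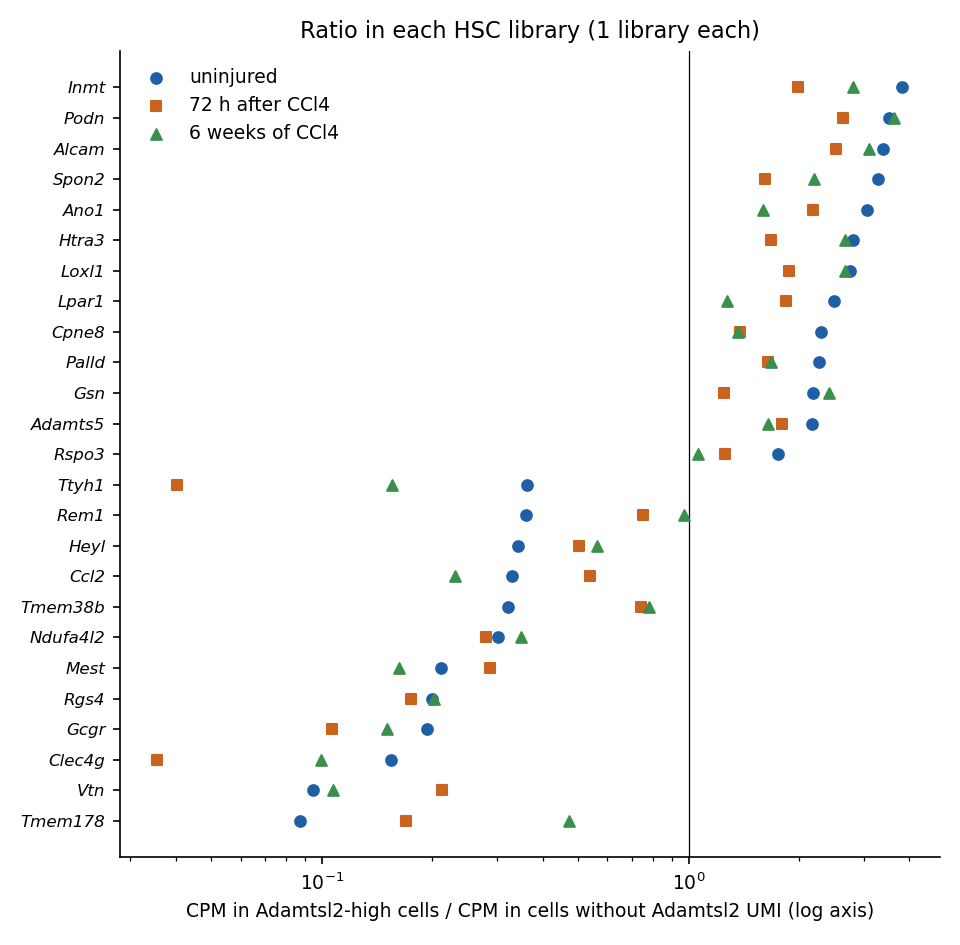
Ratio of the level in Adamtsl2-high cells to that in cells without an Adamtsl2 UMI (x axis, log scale) for Rspo3 and the genes with the 12 largest uninjured ratios each way (y axis), in 1 library each of uninjured liver, 72 h after CCl4 and 6 weeks of CCl4. The 13 genes above 1 in uninjured liver stay above 1 in both injured libraries, with Rspo3 at 1.06 after 6 weeks, and the 12 below 1 stay below it.

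In the libraries of protocol 1, the rule found other cells. It was met by 84 cells of the uninjured and 134 cells of the 6-week library. Reln was seen in 4 of the 84 (4.76%) and 6 of the 134, while at least 3 fibroblast marker UMIs were held by 83 of the 84 and by all 134. Their fibroblast markers summed to 8312 and 8288 CPM, against 42.0 CPM in the Adamtsl2-high cells of protocol 2. These were thus not stellate cells by their markers, and protocol and cell type cannot be told apart in this comparison.

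Smart-seq2 wells, whose values did not enter the rule for the droplets or the 10X ratios, gave the replicated test. A plate of uninjured mice held 62, 160 and 160 wells of 3 mice. Other plates of the series, each labelled with an uninjured mouse beside injured mice, were not used in this test. After filtering, 337 wells had a median of 464524 reads (203836 to 639481), and 150 and 156 wells of mice 2 and 3, isolated with protocol 2, held both Reln and Lrat. Mouse 1 had 1 such well. Of the wells highest in Adamtsl2, 38 of 50 and 45 of 52 held a read of Ngfr. Only 12 and 7 wells were in the upper tertile of Adamtsl2 without an Ngfr read, and the test as intended, which asked for at least 10 wells per class, would have kept 1 mouse and was not run. The reported test is the alternative that took the upper tertile of Adamtsl2 whatever the Ngfr reads, 50 and 52 wells, against the 55 and 30 wells without an Adamtsl2 read. Reads were summed per mouse and class and fitted with edgeR with the mouse as a block, which left 1 residual degree of freedom before edgeR shared the spread across genes. In sums of wells, fewer wells with a gene and less RNA per well cannot be told apart.

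Of 11504 genes, edgeR's quasi-likelihood test called 0 at an adjusted p under 0.05 (lowest adjusted p 0.393), while at an unadjusted p under 0.05 there were 269 higher genes (2.34%) and 297 lower (2.58%). DESeq2 called 72 higher (0.626%) and 115 lower (1%) at an adjusted p under 0.05. Many of these, with the largest fold changes among them, were genes under 20 CPM in the droplets, such as Glp2r at 11.2 and Chst1 at -10.7 (log2). Droplet ratios of such genes lay on both sides of 1, as at 1.85 for Cd1d1 and 0.395 for Rgs2, both higher in the wells. The genes that differed in the droplets had the same direction in the wells in larger shares than all genes. Of the 91 higher genes, 90 were measured, and 84 (93.3%) were above 0, against 51.7% of all genes. In both mice 68 were, against 26.4% of all. At an unadjusted edgeR p under 0.05, 37 were higher (41.1%) and 0 lower, and DESeq2 called 16 higher. Of the 167 lower genes, 137 of 162 (84.6%) were below 0, against 48.3% of all genes, 107 in both mice against 25.4%. At an unadjusted edgeR p under 0.05, 70 were lower (43.2%) and 0 higher, and DESeq2 called 44. Median log2 fold changes were 0.77 and -0.76, against 0.03 over all genes.

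**Figure D4:**
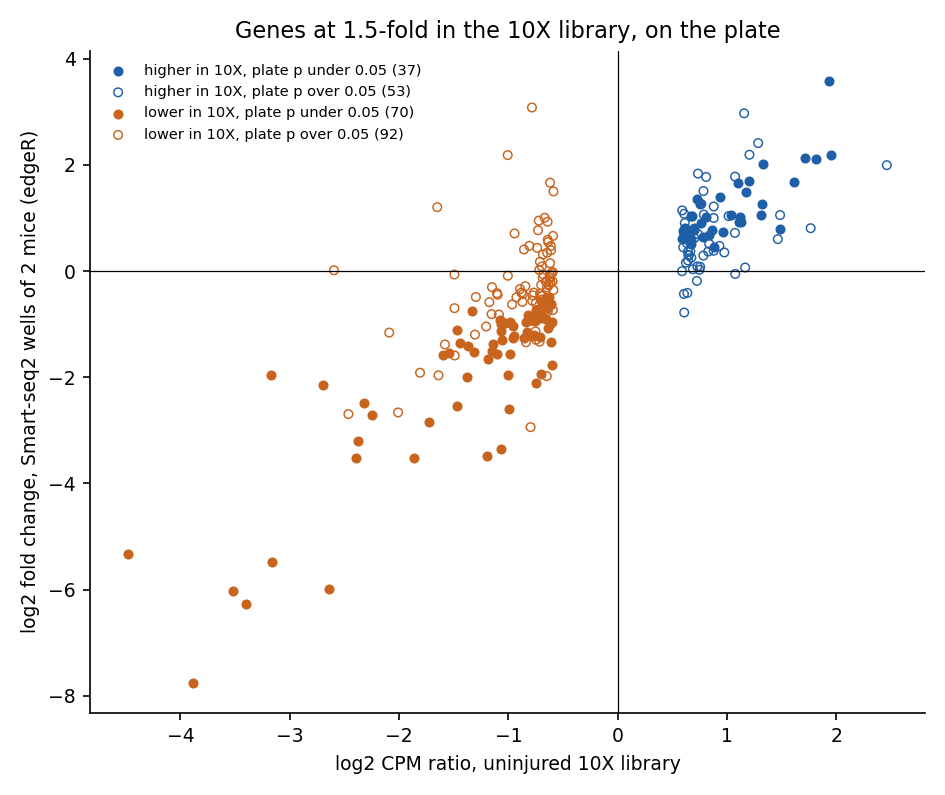
Log2 CPM ratio in the uninjured 10X library (x axis) and log2 fold change in Smart-seq2 wells of 2 uninjured mice (y axis, edgeR) for the genes at 1.5-fold in the library, where filled points have an unadjusted plate p under 0.05 and open points do not. The 37 filled blue points all lie above 0 and the 70 filled orange points all lie below it, whereas the open points lie on both sides.

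Spon2 stood at 727 reads per 1000000 (RPM) in Adamtsl2-high wells against 131 RPM in mouse 2, and at 542 against 159 RPM in mouse 3. Its log2 fold change was 2.14 ± 0.24 (SE from the edgeR fit), with an unadjusted p of 0.00016 and an adjusted p of 0.393 by edgeR. Every SE given for the wells was derived from the fold change and the edgeR test statistic, with spread shared across genes. Such an SE does not measure the spread between the 2 mice. The summed high wells of either mouse were above the reference wells of both for Spon2. Rspo3 stood at 1111 against 418 RPM and 876 against 581 RPM, with a log2 fold change of 1.02 ± 0.23 and an unadjusted edgeR p of 0.00527. Inmt, at 223 against 19.8 RPM and 159 against 12.8 RPM, had a log2 fold change of 3.58 ± 0.30 and an unadjusted edgeR p of 3.82e-05. Podn followed the same order, at 201 against 30.7 RPM and 157 against 57.0 RPM, as did Ano1, with a log2 fold change of 1.67 ± 0.23. Col1a1 was 1.26 ± 0.24 higher on the log2 scale, with an unadjusted edgeR p of 0.00268. For Lpar1, the log2 fold change was 1.26 ± 0.38 and the unadjusted edgeR p 0.0182. Loxl1 and Alcam had log2 fold changes of 0.60 and 0.81, with unadjusted edgeR p of 0.0894 and 0.199.

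Among the lower genes, Igfbp3 stood at 401 against 1372 RPM in mouse 2 and at 639 against 1565 RPM in mouse 3. The log2 fold change was -1.52 ± 0.17, with an unadjusted p of 0.000174 by edgeR. Rgs4 stood at 83.2 against 651 RPM and 107 against 433 RPM, a log2 fold change of -2.48 ± 0.29. Vtn, at 4.32 against 127 RPM and 0.218 against 74.4 RPM, had a log2 fold change of -6.27 ± 0.99. The reference wells were above the high wells in both mice for these 3 genes. Ccl2 and Mest had log2 fold changes of -1.59 ± 0.39 and -2.72 ± 0.26. Acta2, which was among the lower genes of the droplets, had a log2 fold change of 0.01 ± 1.97 in the wells, with -0.09 in mouse 2 and 0.11 in mouse 3. Ngfr, which did not choose these wells, stood at 303 against 1278 RPM in mouse 2 and 412 against 948 RPM in mouse 3.

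Spread between wells was wide. Spon2 had a read in 41 of 50 high wells and 25 of 55 reference wells of mouse 2, and in 45 of 52 and 11 of 30 of mouse 3. The median high well held 565 and 423 RPM of Spon2 and the median reference well 0 in both mice. In the 12 and 7 high wells without an Ngfr read, which meet the rule of the droplets most closely, Spon2 stood at 1114 and 385 RPM, Rspo3 at 1317 and 856 RPM and Inmt at 408 and 379 RPM. Igfbp3 stood at 560 and 610 RPM there, and each of these sums lay on the same side of the reference wells as the sum over all high wells. Of the central list, 27 of 27 genes were above 0, 20 of them at an unadjusted edgeR p under 0.05, and of the portal list 48 of 50 were below 0, 40 at that p. Both lists were drawn by the study from its 10X cells. Over all genes, 51.7% were above 0 and 48.3% below, with 2.34% higher and 2.58% lower at that p. Contractile genes were below 0 in 12 of 14 cases, 7 at that p. Smooth muscle markers, which overlap that list, were below 0 in 4 of 5 cases, 3 at that p. Interferon-stimulated genes were below 0 in 9 of 10 cases, 3 at that p. The part of these markers and genes in the contrast was not tested. Of 30 collagen and proteoglycan genes, 8 were higher and 7 lower at that p. Immediate early genes were above 0 in 8 of 9 cases, 6 at that p, and their part in the other differences was not tested.

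**Figure D5:**
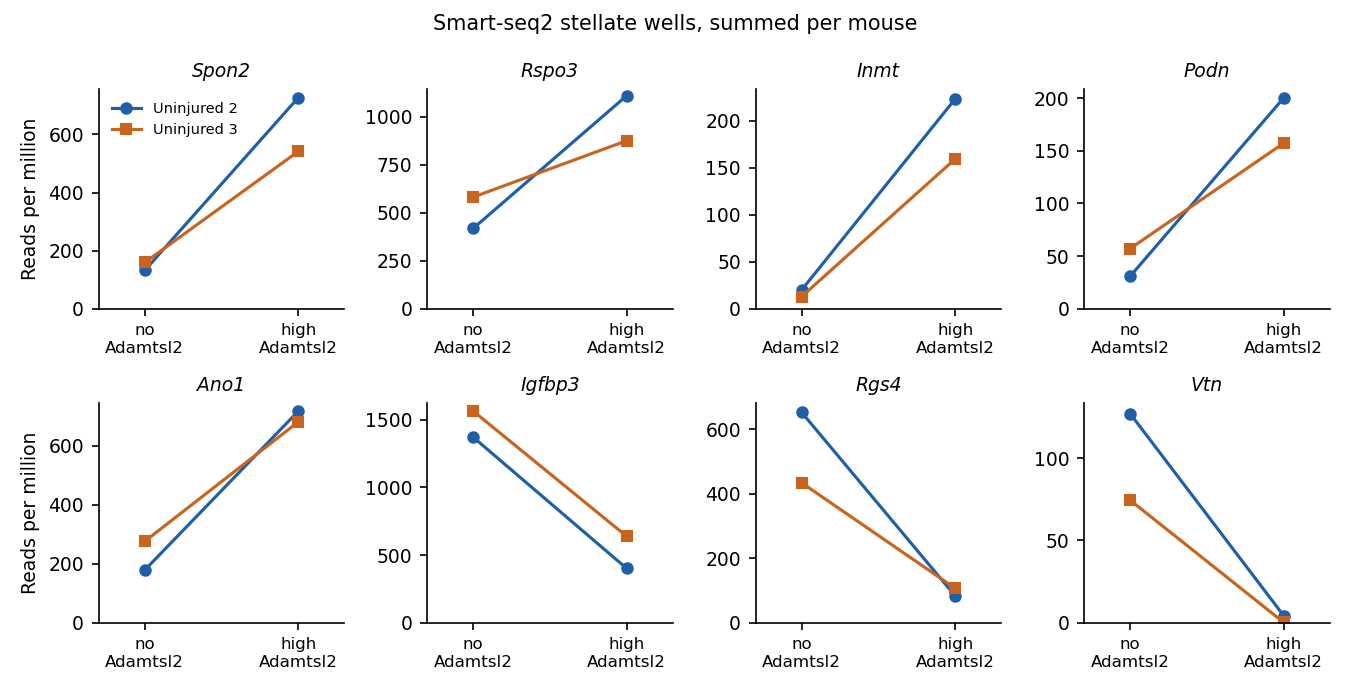
RPM (y axes, each from 0) of 8 genes in summed stellate wells without an Adamtsl2 read and in the upper tertile of Adamtsl2 (x axes), with 1 line for each of the uninjured mice 2 and 3. Spon2, Rspo3, Inmt, Podn and Ano1 are higher and Igfbp3, Rgs4 and Vtn lower in the Adamtsl2-high wells of both mice.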

How the data were processed

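The 10X values are the raw UMI counts that the authors deposited for every gene in every barcode, made from an mm10 alignment. The submitters' processing notes name Cell Ranger 2.1.0 and STAR. For Smart-seq2, they deposited read counts per gene and well, also unnormalized, from which eGFP (0.0345% of reads) was left out and 771 rows with shared symbols were summed. No columns of the authors' own comparisons were used. The members, gene lists and tests were chosen with earlier results of these data known.

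Genes seen in fewer than 3 cells were dropped. UMIs were summed per group of cells and scaled to 1000000 (CPM), with exact Poisson intervals for levels, exact conditional intervals for ratios and exact Clopper-Pearson intervals for shares, all at 95%. A count of 0 was set to 3 counts for bounds. Positions follow the Ensembl identifiers in GENCODE vM21 (GRCm38). Doublets were called by likeness to random sums of 2 cells of the library, at a rate that rose with the number of cells. Named genes were the markers, the 12 largest ratios each way with at least 50 CPM in the higher group, up to 4 called members of each list (or its most abundant gene) and the 5 highest correlations with Adamtsl2. Others named as counts of 5 or fewer were chosen after their values were seen.

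Wells within 3 median absolute deviations in reads, genes and spike-in share, holding at least 100 RPM of both Reln and Lrat, were summed for mice with at least 10 wells per class, TMM-normalized, filtered by expression and tested with edgeR 4.0.16 (quasi-likelihood, Benjamini-Hochberg) in R 4.3.3, or with DESeq2 1.42.0. The test intended without Ngfr reads left 1 mouse with that many wells, so a listed alternative took its place. Another alternative, wells over 50 RPM of Adamtsl2 without an Ngfr read, had 17 and 24 high wells in mice 2 and 3. With it, edgeR gave 175 higher and 293 lower of 10874 genes at an unadjusted p under 0.05, and 0 at an adjusted p under 0.05. On simulated counts of 11158 genes for that comparison, edgeR called 20 of 50 genes changed 4-fold upward, 11 of 46 changed 4-fold downward, 5 of 49 changed 2-fold upward, 2 of 47 changed 2-fold downward and 2 of 10966 unchanged genes. For the uninjured 10X contrast, on simulated counts of 5872 genes, 50 of 50 raised 2-fold were called. Alternatives changed depth, doublets, stress, thresholds, the reference and the normalization. Python 3.11.15, NumPy 2.4.6, SciPy 1.17.1 and scikit-learn 1.9.0 were used.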

Additional observations from a re-analysis of the deposited data

Results flagged for a closer look

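Some genes called in uninjured liver were called in the opposite direction in an injured library. These differences were not tested, since each condition is 1 library, and of the 91 and 167 genes they are the only ones with opposite calls. At 72 h after CCl4, Acta2 had a ratio of 1.62 between Adamtsl2-high and reference cells, where it was 0.166 in uninjured liver. In uninjured liver it rests on few cells, with a UMI in 12 of 452 and 125 of 2722, and its ratio there was 0.691 with the Ngfr clause dropped. The 72 h ratio was 0.933 when cells were thinned before they were chosen and 1.09 against reference cells without Ngfr. Igfbp3 had 1.64 at 72 h and 0.403 in uninjured liver, and its 72 h call ended against reference cells without Ngfr (1.21) and when thinned before choosing (1.43). Alb, the hepatocyte gene albumin, had 9.68 at 72 h and 0.437 in uninjured liver. At 72 h, 1 cell held 626 of the 678 Alb UMIs of the Adamtsl2-high cells, and without cells holding at least 3 hepatocyte markers (4 of 965 and 13 of 2481) the ratio was 0.782, so that the opposite call rests on those cells. Hhip, which binds hedgehog ligands, had 1.53 in uninjured liver, 0.550 at 72 h and 0.656 after 6 weeks. In the Smart-seq2 wells of uninjured mice, Hhip was higher, with a log2 fold change of 0.75 by DESeq2 (adjusted p 0.00585). Its uninjured ratio lay just over the 1.5-fold mark, and fell below it in cells of 5000 to 10000 UMIs (1.46), against reference cells without Ngfr (1.18) and with the Ngfr clause dropped (1.18), while in the same depth range the injured ratios were 0.687 and 0.707, also not called. Htra1, a secreted serine protease, had 1.70 after 6 weeks and 0.161 in uninjured liver. The latter rests on 16 UMIs in 12 of 452 cells. That uninjured ratio was 0.362 against reference cells without Ngfr and 0.465 with the Ngfr clause dropped. The 6-week call of Htra1 ended against reference cells without Ngfr (1.45). In the Smart-seq2 wells of uninjured mice, Htra1 had a log2 fold change of -6.06 by DESeq2 (adjusted p 0.00293). Alb had one of -3.48 (adjusted p 8.65e-05 by DESeq2), while edgeR called no gene in these wells.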

How the results depend on the processing

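In uninjured liver, the 91 higher and 167 lower genes became 159 higher when cells were thinned to 3000 UMIs, 56 and 65 with reference cells without an Ngfr UMI, 45 and 77 with the Ngfr clause dropped, and 327 and 456 with at least 5 Adamtsl2 UMIs. They became 53 and 75 with a minimum of 50 CPM, 299 and 454 with 5 CPM, and 28 and 58 at 2-fold. At 72 h, the 181 and 237 became 413 and 453 in cells of 5000 to 10000 UMIs, 62 and 74 with reference cells without an Ngfr UMI, 96 and 141 with 50 CPM, 453 and 422 with 5 CPM, and 56 and 84 at 2-fold. After 6 weeks, the 182 and 302 became 325 and 495 in cells of 5000 to 10000 UMIs, 309 and 503 when thinned, 100 and 141 with reference cells without an Ngfr UMI, 325 and 530 with at least 5 Adamtsl2 UMIs, 100 and 169 with 50 CPM, 475 and 686 with 5 CPM, 59 and 81 at 2-fold, and 342 higher when thinned before choosing. Other than thresholds and smaller groups, which change the count by construction, the cause was not tested. Thinning before choosing, added after seeing the data, called 50 of the 91 and 99 of the 167 genes in uninjured liver, and at 72 h 76 of the 181 and 89 of the 237. Of 1020 ratios of named genes in uninjured liver, 830 stayed within their counting interval, and 24 crossed 1, of which 1 had been called at 1.5-fold, Cxcl2 at 1.36 with reference cells without an Ngfr UMI. The 830 include the settings of 50 CPM, 5 CPM and 2-fold, which change only the calls. Ratios stayed the same there by construction, also in the injured libraries, so the 830 overstate the stability. In each injured library, 224 ratios of the genes printed for it were recomputed, of which 9 at 72 h and 4 after 6 weeks crossed 1. Those of called genes were Alb at 72 h, at 0.799 in cells of 5000 to 10000 UMIs, 0.782 without cells with hepatocyte markers and 0.865 when thinned before choosing, Acta2 at 72 h, at 0.933 when thinned before choosing, and Alb after 6 weeks, at 1.17 when thinned before choosing. Leaving out cells with at least 3 fibroblast marker UMIs, chosen after seeing the data, gave 90 higher and 165 lower.

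On the plate, edgeR called 0 genes under size-factor scaling, without the filter, without the block on the mouse, with wells over 50 RPM of Adamtsl2 and no Ngfr read (17 and 24 wells), in wells of similar depth and with the lower part of Ngfr (added after seeing the data), while DESeq2 called 72 and 115. Of 108 fold changes of named genes, 98 kept their direction and, where a p was computed, their side of the threshold, and 10 passed it under DESeq2. Fold changes of 1 mouse alone had no p, so only their direction was compared, and they share the data of the main fit. A reference without Ngfr reads had 2 and 3 wells and was not run. No paired analysis was possible beyond the block on the mouse because each 10X condition is 1 library. The 10X counts limit genes under 20 CPM.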
